A study of Sus scrofa with 20 samples.

Results

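HIST1H2BB, the table's row for a gene of the H2B histone family, stood at 1637 to 5034 normalized counts in the 11 libraries numbered S2 to S14 and at 0 to 43.1 in the 9 libraries numbered S15 to S23. It is 1 of the 25764 genes measured by RNA-sequencing in 20 libraries of pig cells. The libraries are divided here by label number at S15, the first wild-type pBTSC library, which is also where HIST1H2BB changed in earlier results of these data. HIST1H2BB was chosen by these same values, as the row that separated H2B-GFP from wild-type piglets, so its own levels and differences are given as descriptions and carry no test. The normalized count is the unit of the deposited table, in which the authors scaled each library's gene counts to a common depth.

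The study sequenced poly(A) RNA of 5 preparations of pig biliary tree stem cells (pBTSCs), grown from the gallbladder and extrahepatic bile ducts of neonatal piglets, together with 15 liver cell preparations that had been sorted by surface markers. The pBTSC libraries S2, S7 and S11 came from H2B-GFP piglets 1, 2 and 3, which were 1, 1 and 2 days old. The libraries S15 and S20 came from wild-type piglets 1 and 2, both 1 day old. H2B-GFP pigs carry an IRES-pH2B-eGFP cassette that CRISPR-Cas9 editing placed in the endogenous ACTB locus, so that a histone H2B fused to green fluorescent protein is made in cells throughout the body and marks their nuclei. The H2B-GFP piglets were males from a transgenic boar and a wild-type gilt, and the wild-type animals were of mixed breeds. The H2B-GFP preparations held more cells and, where it was measured, had a lower RNA integrity than the wild-type ones, which cannot be told apart from the line. All H2B-GFP pBTSC libraries also have lower label numbers than the wild-type ones, so the line and the label number cannot be told apart either. The liver libraries were sorted as CD45+ (5 libraries), CD45-/EpCAM+ (4), CD45-/EpCAM- (2), CD31+ (2) and CD146+ (2). Neither the line nor the piglet of a liver library is given, so these libraries are described by the number in their label alone.

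Histone H2B is a core protein of the nucleosome, around which DNA is wrapped, and mammals carry many nearly identical H2B genes in clusters. Most canonical histone mRNAs are made in S phase and end in a stem-loop in place of a poly(A) tail, so libraries made from poly(A) RNA hold few of their reads. ACTB encodes cytoplasmic beta-actin, which nearly every cell expresses at a high level. Fusions of H2B with a fluorescent protein are widely used to label nuclei and to trace grafted cells.

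The precision of each level was set by the depth, which was estimated from the value that 1 read takes in each library. The libraries S22, S13 and S15 held 455000, 801000 and 1570000 reads, and the other 17 held 21200000 to 77800000. Each interval below is an exact Poisson 95% interval on the reads of HIST1H2BB, and intervals and floors cover counting error only. The pBTSC libraries held RNA of the biliary markers EPCAM (884 to 2075 normalized counts), KRT7 (440 to 2081) and SOX9 (402 to 821), but also of PECAM1, the endothelial marker CD31 (28048 to 36576), and of PTPRC, the leukocyte marker CD45 (534 to 2140). COL1A1, a collagen gene, was at 129440 to 581220 there, and HBB, a globin gene of red blood cells, at 28318 to 125450. The biliary markers were not particular to pBTSCs, with EPCAM at 491 to 2232, KRT7 at 162 to 954 and SOX9 at 272 to 1708 in the liver libraries. In the liver libraries PTPRC did not separate the sorts, at 424 to 2687 in the CD45+ and 450 to 3027 in the CD45- libraries sorted by EpCAM, and PECAM1, at 20102 and 25291 in the CD31+ libraries, was at 20655 and 28778 in the CD146+ ones. The part of cell composition in the HIST1H2BB levels was not tested, and in bulk RNA fewer cells with a transcript and less of it per cell cannot be told apart.

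In the pBTSCs of the H2B-GFP piglets, HIST1H2BB was at 3306 normalized counts in S2, 3388 in S7 and 3927 in S11, a mean of 3540 ± 337 (SD, n = 3). In the wild-type piglets it was at 12.6 in S15 and 11.6 in S20. All 3 H2B-GFP libraries were high, both wild-type libraries were low, and the groups did not overlap. The S20 level rested on 24.2 reads (interval 7.37 to 17.1 normalized counts), and the mean of the H2B-GFP libraries was 305-fold and their lowest 285-fold that level. S15 held 1 read of HIST1H2BB (interval 0.318 to 70.0 normalized counts), which lies under the floor of 3 reads, worth 37.7 normalized counts there. The mean of the H2B-GFP libraries was 281-fold the S15 level, with a counting interval from 50.6 to 11128. On the log2(normalized count + 1) scale, the difference between H2B-GFP and wild-type pBTSCs was 8.08, the largest positive difference among 15557 genes, the next being 5.82. In the other direction the differences reached -8.38, which is larger in size. In limma, 264 of these genes were called, which is 1.70%, and 58 of them, 0.373%, were higher in the H2B-GFP piglets. The balance of directions turned with 1 library, from 58 higher and 206 lower to 510 and 266 without S20, and it was 15 and 66 without S15. HIST1H2BB was among the 58 called as higher, a count from which nothing is read since the same contrast chose the gene. The plot of all tested genes places it apart from the other canonical histones.

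**Figure D1:**
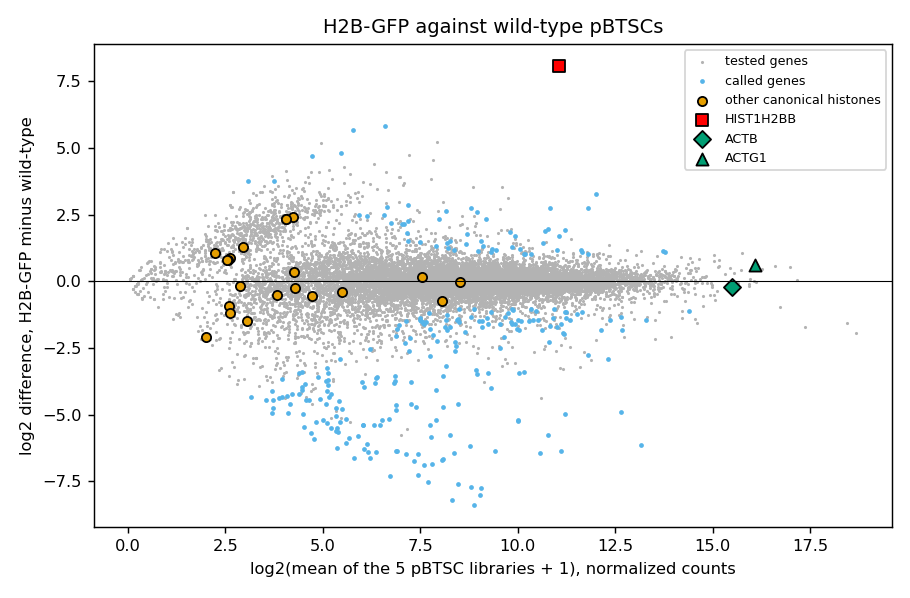
Each point is 1 of the 15557 tested genes, with the mean of the 5 pBTSC libraries on the x axis as log2(mean + 1) and the log2 difference of H2B-GFP minus wild-type on the y axis. HIST1H2BB (red square) lies at 8.08, while the other canonical histones (orange) lie between -2.09 and 2.41 and ACTB lies at -0.21.

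HIST1H2BB was also high in every liver library numbered S3 to S14, of each sort present there. In the CD45+ libraries it was at 3541 normalized counts in S3, 4095 in S8 and 5034 in S12. In the CD45-/EpCAM+ libraries it was at 2577 in S4, 3524 in S9 and 4053 in S13, and in the CD45-/EpCAM- libraries at 1637 in S5 and 3369 in S14. These 8 libraries had a median of 3533, close to the mean of the H2B-GFP pBTSCs. In each run of neighbouring label numbers up to S14 the order of the sorts was the same, with CD45+ above CD45-/EpCAM+ (S3 above S4, S8 above S9, S12 above S13) and CD45-/EpCAM+ above CD45-/EpCAM- (S4 above S5, S13 above S14). The interval of the shallow S13, 3454 to 4748 on 158 reads, left out the S12 level of 5034 but only just met that of S14, 3284 to 3455.

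In the liver libraries numbered S16 to S23, HIST1H2BB was low in each sort. It was at 20.4 normalized counts in S16 and 43.1 in S21 (CD31+), at 26.6 in S17 and 0 in S22 (CD146+), at 16 in S18 and 29.7 in S23 (CD45+), and at 22.2 in S19 (CD45-/EpCAM+). The median of these 7 libraries was 22.2, and none of them reached the levels of the liver libraries S3 to S14. The 0 of S22 has a floor of 156 normalized counts, the worth of 3 reads in that shallow library, and an exact Poisson upper limit of 192. The lowest level of S2 to S14 was at least 10.5-fold higher by that floor and 8.51-fold the upper limit. The same 2 sorts held both high and low levels: CD45+ cells had 3541, 4095 and 5034 against 16 and 29.7, and CD45-/EpCAM+ cells had 2577, 3524 and 4053 against 22.2. The order of sorts seen up to S14 did not hold there, since the CD45+ library S18 lay below its CD45-/EpCAM+ neighbour S19, with overlapping intervals. CD31+ and CD146+ libraries had numbers from S16 upward only and CD45-/EpCAM- libraries from S14 downward only, so for these sorts the sort and the number cannot be told apart.

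**Figure D2:**
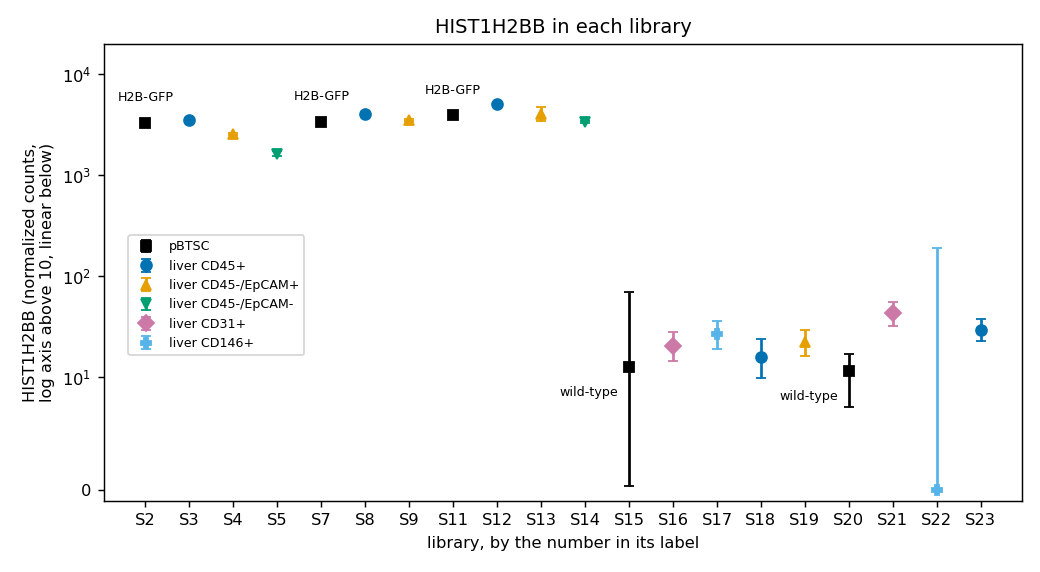
HIST1H2BB in each of the 20 libraries, in normalized counts on an axis that is logarithmic above 10 and linear below, with the exact Poisson 95% interval as bars and the sort as colour and symbol. The 11 libraries S2 to S14 lie between 1637 and 5034 and the 9 libraries S15 to S23 between 0 and 43.1.

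Ordered by level, S12 stood first and its interval (4917 to 5154) met no other. S8, S13 and S11 followed, with overlapping intervals of 3989 to 4204, 3454 to 4748 and 3830 to 4026. The intervals of S3 (3451 to 3633) and S9 (3438 to 3613) overlapped, as did those of S7 (3331 to 3447), S14 and S2 (3253 to 3360), and the intervals of S7 and S14 also met that of S9. S14 (3284 to 3455) just met S3 as well, and the wide interval of S13 met those of S3, S9 and S14. The order from S8 down to S2 thus has no clear steps. S4 (2503 to 2653) and S5 (1543 to 1734) each stood below with intervals of their own. Within the low libraries, S21 (32.3 to 55.5) met the intervals of S23 (23 to 37.8) and S17 (19.1 to 36.4) but not those of S19 (16.2 to 29.4), S16 (14.5 to 28.0) or S18 (9.92 to 24.0). S21 also met the wide intervals of the shallow S15 (0.318 to 70.0) and S22 (0 to 192). The lowest of S2 to S14 was 38.0-fold the highest of S15 to S23. These intervals hold for single libraries and say nothing of the spread between animals, which only the pBTSCs measured. By rank, HIST1H2BB lay above 88.9% to 97.5% of all 25764 genes in S2 to S14, and above 43.8% to 51.1% in S15 to S23 without S22.

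ACTB, the gene at whose locus the cassette was placed, did not follow this pattern. It ranged from 33213 to 70012 normalized counts in S2 to S14 and from 40317 to 51563 in S15 to S23, so the ranges overlapped. Between H2B-GFP pBTSCs (44600, 44552 and 41488) and wild-type pBTSCs (51563 and 48919) its log2 difference was -0.21 (SE 0.18, limma, adjusted p = 0.572), below the threshold for a call. Relative to ACTB, HIST1H2BB was at 74.1 in S2, 76.1 in S7 and 94.6 in S11 per 1000 normalized counts of ACTB, and at 0.244 in S15 and 0.237 in S20. In the liver libraries S3 to S14 this ratio was 39.8 to 88.9 with a median of 70.9, and S5 alone lay below 67.1. In the liver libraries S16 to S23 it was 0 to 1.07 with a median of 0.482. The ratio to ACTB varied less over the 11 libraries S2 to S14, with a coefficient of variation of 19%, than HIST1H2BB itself (24.9%), its ratio to ACTG1 (27.6%) or its share of the library total (32.1%). Without S5, chosen after seeing the data, the coefficients were 11.6%, 17.6%, 20.7% and 22.9% in the same order. In the 3 H2B-GFP pBTSC libraries, the only ones of these whose line is given, the ratio to ACTB did not vary least. There the coefficients were 13.9%, 9.52%, 21% and 8.06% in the same order. No test was made of them. Since both genes are counted without regard to their length in this ratio, it gives how counts vary together and not a ratio of molecules.

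**Figure D3:**
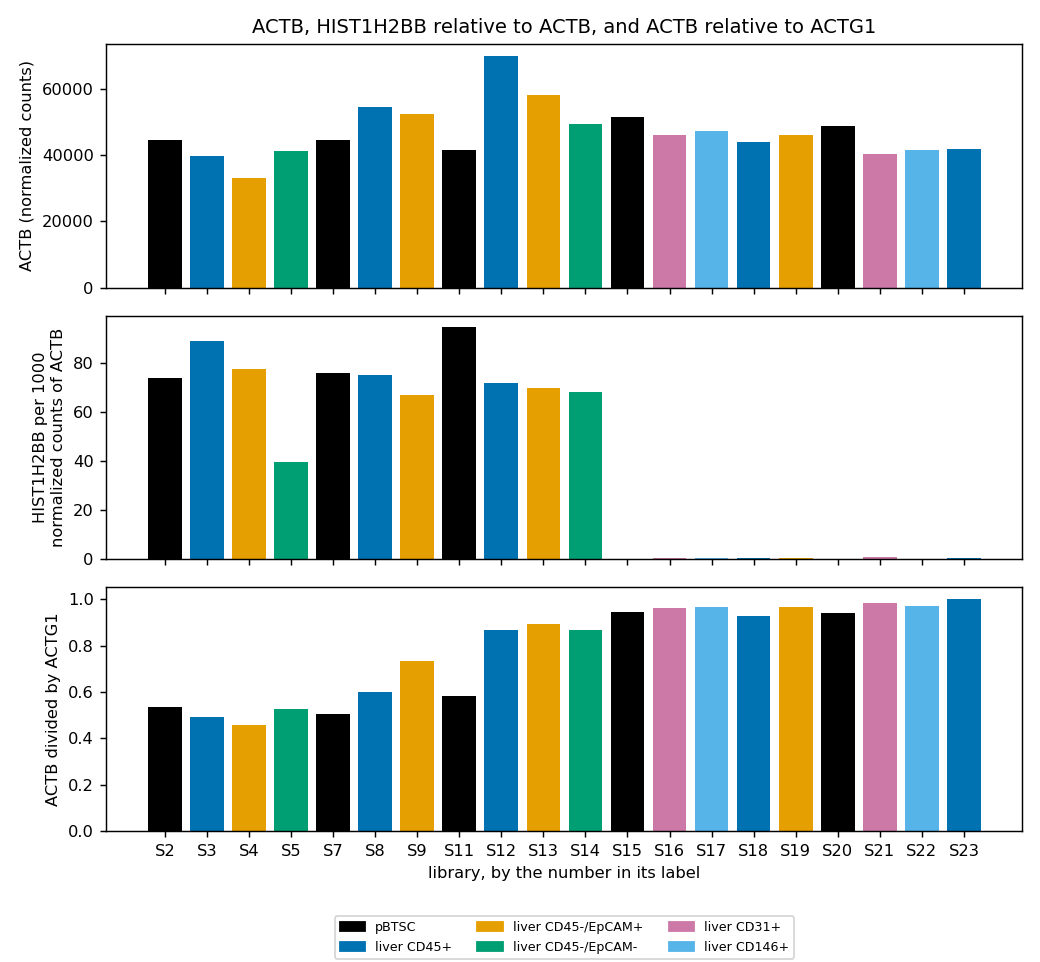
Bars give, for each of the 20 libraries, ACTB in normalized counts (top), HIST1H2BB per 1000 normalized counts of ACTB (middle) and ACTB divided by ACTG1 (bottom), coloured by sort. ACTB overlaps between S2 to S14 and S15 to S23, while the middle bars stand at 39.8 to 94.6 in S2 to S14 and at 0 to 1.07 in S15 to S23.

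ACTG1 encodes gamma-actin, the other cytoplasmic actin. It was at 56717 to 90545 normalized counts in S2 to S14 and at 40934 to 54527 in S15 to S23, without overlap. In the pBTSCs its log2 difference between the lines was 0.60 (SE 0.22, limma, adjusted p = 0.241), which did not pass the test. ACTB divided by ACTG1 was 0.456 to 0.891 in S2 to S14 and 0.926 to 1.002 in S15 to S23. Of the 5 actin genes tested between the lines and of the 6 tested genes that lie near ACTB, 0 were called in limma, with median log2 differences of -0.13 and 0.07, and 3 and 0 had an unadjusted p under 0.05, beside 1.70% called and 2797 of 15557 with such a p over all genes.

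The other canonical histone genes did not share the pattern of HIST1H2BB. By name, the table held 32 further canonical histone rows, 7 of them of the H2B family, of which 21 and 5 passed the filter on low values. Between H2B-GFP and wild-type pBTSCs, 0 of the 21 were called in limma against a background of 1.70%. At that share a list this short would hold few calls, so nothing is read from the 0. Most of the 21 also held 3 reads or fewer in S15, and 1 HIST1H3E row at 2.41 (SE 1.21) was not called. An unadjusted p under 0.05 was met by 1 (HIST1H2BD). The median log2 difference of the 21 was -0.04 beside 0.01 over all tested genes, with 10 of 21 above 0. HIST1H2BD, another H2B gene, was at 214, 161 and 260 normalized counts in S2, S7 and S11, a mean of 211 against 348 in the wild-type libraries (log2 difference -0.74, SE 0.24, limma, adjusted p = 0.202). HIST2H2BE, an H2B gene whose transcripts can be polyadenylated, had a log2 difference of 0.17 (limma, adjusted p = 0.793) and HIST1H2BF one of -0.25 (limma, adjusted p = 0.832). The linker histones HIST1H1D and HIST1H1E differed by -0.04 (limma, adjusted p = 0.930) and -0.39 (limma, adjusted p = 0.616). Summed, the 7 other rows named as H2B were at 406 to 1055 normalized counts in S2 to S14 and 541 to 1159 in S15 to S23. HIST1H2BB exceeded this sum in all 11 libraries of the first set and in none of the 9 of the second. Of all 25764 rows, 7782 had no name, so any H2B genes among them are not in the sum.

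Within S2 to S14, HIST1H2BB was lowest in the library in which most other canonical histone rows were high. S5, which had the lowest HIST1H2BB of the 11, had the highest level among the 17 deeper libraries for 18 of the 21 other canonical rows. The exceptions were HIST3H2A, highest in S11, and the H2B genes HIST2H2BE, highest in S4, and HIST1H2BD, highest in S21. HIST1H2BD was also higher in S14 (677 normalized counts) than in S5 (596). How many of all genes were highest in S5 was not counted, so nothing is read from the 18. HIST1H1E, for example, was at 277 normalized counts in S5 and at 35.2 to 116 in the rest of S2 to S14. S5 was also unlike the other libraries in HBB, the beta-globin gene of red blood cells, at 840920 normalized counts. The part of these erythroid reads in either level was not tested. Over all 20 libraries, Pearson's r between the 21 rows and HIST1H2BB ran from -0.583 to 0.541 with a median of 0.184, a description of libraries that share animals and sorts in an unknown way.

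**Figure D4:**
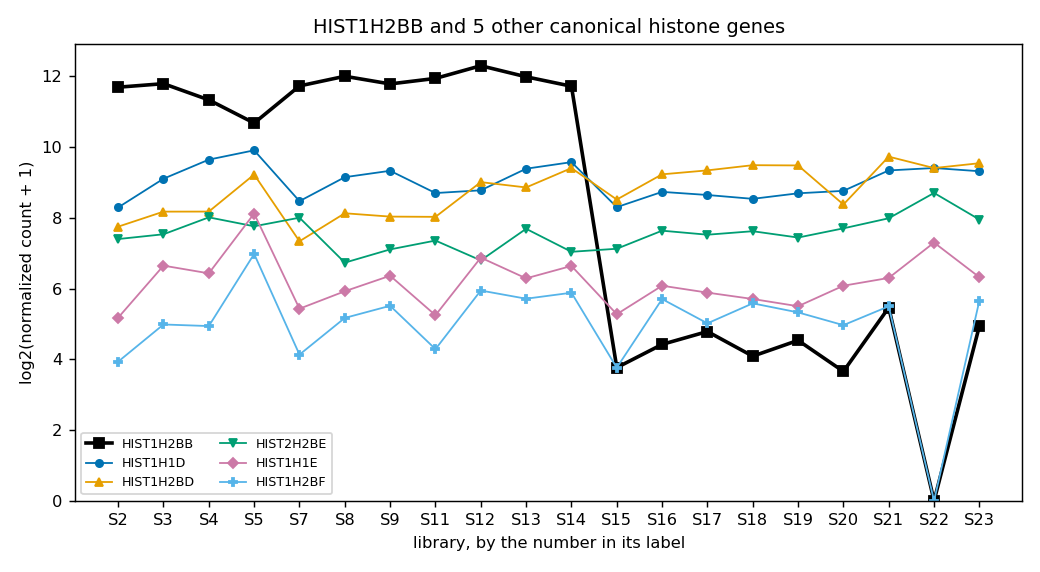
HIST1H2BB (black) and the 5 other canonical histone genes with the highest mean, as log2(normalized count + 1), in the 20 libraries; lines join libraries for the eye only. HIST1H2BB falls from at least 10.68 in S2 to S14 to at most 5.46 in S15 to S23, while each of the other 5 overlaps between both sets, HIST1H2BF being at 0 in the shallow S22.

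Lists of genes from the paths that make, process and place histones were also compared between the lines. At the background share given below, lists this short would hold few calls, so a count of 0 is not read as a result. For the 14 tested genes of histone mRNA processing, such as SLBP, which binds the stem-loop (log2 difference -0.05, limma, adjusted p = 0.821), 0 were called in limma, 1 had an unadjusted p under 0.05 and the median difference was 0.02. For the 8 tested genes of H2B chaperones and modification, such as NAP1L1 (0.06, limma, adjusted p = 0.877) and RNF20 (-0.14, limma, adjusted p = 0.511), 0 were called in limma, 1 had an unadjusted p under 0.05 and the median was 0.09. For the 10 tested variant histones, which are made outside S phase from polyadenylated mRNAs, 0 were called in limma, 1 had an unadjusted p under 0.05 and the median was -0.002. For the 13 tested genes of S phase and division, such as MCM2, a subunit of the replicative helicase (0.60, limma, adjusted p = 0.170), and TOP2A, a topoisomerase (-0.83, limma, adjusted p = 0.384), 0 were called in limma, 3 had an unadjusted p under 0.05 and the median was 0.27. The background in the same fit was 1.70% called, and 2797 of the 15557 genes had an unadjusted p under 0.05. Among the 9 tested cell type markers, 1 was called: ALB, the albumin gene of hepatocytes, was lower in the H2B-GFP pBTSCs, at 376, 287 and 288 normalized counts against 19832 and 25087 (log2 difference -6.14, SE 0.17, limma, adjusted p = 8.57e-05). ALB was inverse to HIST1H2BB in the liver libraries too, at 513080 to 1348204 normalized counts in S3 to S14 and 1366702 to 1789958 in S16 to S23, without overlap, and its part in the HIST1H2BB levels was not tested. Of the 9 markers, 6 had an unadjusted p under 0.05: beside ALB these were PTPRC (log2 difference -1.25), COL1A1, a collagen of fibroblasts (-1.56), KRT7 (1.08), EPCAM (0.62) and MCAM, the marker CD146 (0.50), none of which was called.

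The separation of libraries by HIST1H2BB was wide beside that of other genes. Of 15576 genes tested over the 20 libraries, 137 (0.880%) were higher in every library of S2 to S14 than in any of S15 to S23, and 77 (0.494%) were lower in every one. HIST1H2BB had the widest gap, 5.22 on the log2(normalized count + 1) scale between its lowest level in S2 to S14 and its highest in S15 to S23. The next was STMN3, a stathmin family gene, at 1.25, followed by RPS21 (0.54), NT5DC2 (0.47), MS4A8 (0.46) and NPM3 (0.45). In the shallow S22, STMN3, RPS21 and MS4A8 were at 0, under a floor of 156 normalized counts. Their lowest levels in S2 to S14 lay below that floor, so their separation from S22 is not resolved. A gap above 1 was met by 2 genes in this direction, HIST1H2BB and STMN3, and by 2 in the other. Since the division at S15 coincides with the change of HIST1H2BB that was known beforehand, these gaps describe the libraries and test nothing.

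**Figure D5:**
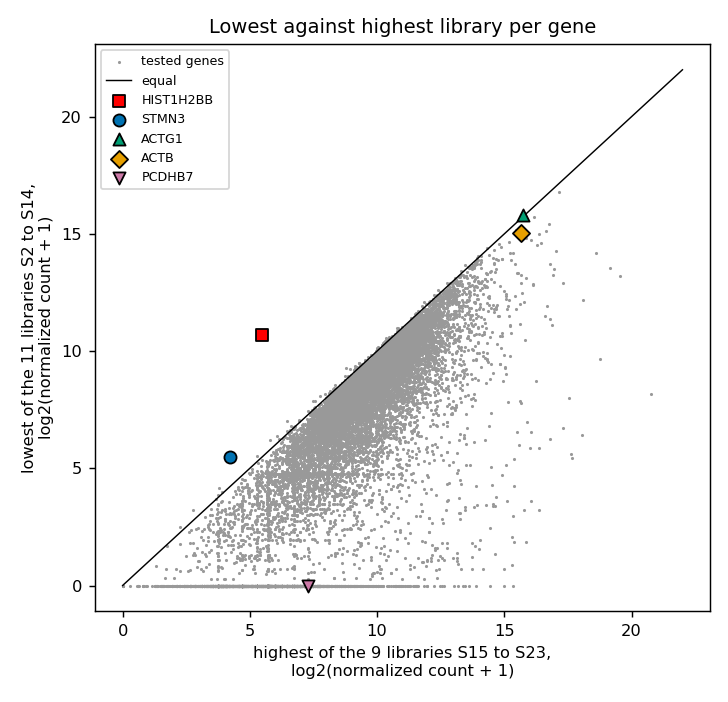
Each grey point is 1 of the 15576 tested genes, with its highest level in the 9 libraries S15 to S23 on the x axis and its lowest level in the 11 libraries S2 to S14 on the y axis, both as log2(normalized count + 1); genes above the line do not overlap. HIST1H2BB (red square) lies 5.22 above the line and STMN3 (blue circle) 1.25 above it.

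Over the 20 libraries, the levels most like those of HIST1H2BB on the log2(normalized count + 1) scale were of CDK16 (Pearson's r = 0.927), STMN3 (0.926) and NT5DC2 (0.922), the only 3 genes above 0.9. They were followed by NUDT3 (0.899), TRIM28 (0.896), MFSD10 (0.895), SRSF2 (0.882), NPG1 (0.881) and AP5Z1 (0.880). These genes shared the direction but seldom the size: CDK16, a cyclin-dependent kinase, was at 1999 to 2497 normalized counts in S2 to S14 and 1512 to 1832 in S15 to S23, and SRSF2, a splicing factor, at 4346 to 8329 and 2610 to 3709. STMN3 was at 43.4 to 98.5 and 0 to 17.7. NPG1, the protegrin 1 gene of myeloid cells, was at 211 to 23896 and 0 to 220, which overlapped. Of the 10 genes with the highest r, 1 was called between the lines, STMN3, at 88.1, 81.9 and 98.5 normalized counts in S2, S7 and S11 against 12.6 and 17.7 in S15 and S20 (log2 difference 2.50, SE 0.35, limma, adjusted p = 0.0281). That call was lost without S2, S7, S11 or S15, with adjusted p-values in limma of 0.103, 0.0896, 0.0861 and 0.0814. In S15 the STMN3 level was that of 1 read, as for HIST1H2BB. NT5DC2 had a log2 difference of 0.87 (SE 0.15, limma, adjusted p = 0.0462), under the threshold of 1.

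The levels least like those of HIST1H2BB were of PCDHB7 (r = -0.948), MYNN (-0.886) and METTL7A (-0.883). PCDHB7, a clustered protocadherin of cell adhesion, was a near mirror image, at 0 to 6.35 normalized counts in S2 to S14 and 62.8 to 156 in S15 to S23, with a gap of 3.12 in that direction. Between the lines its log2 difference was -4.48 (SE 0.69, limma, adjusted p = 0.0347), and the call was lost with any 1 pBTSC library left out, at adjusted p-values in limma of 0.0521 to 0.0942. The likeness to HIST1H2BB is a description over 20 libraries that share sorts and differ in depth, and whose animals are not all given, and no p-value is given for it. Since PCDHB7 was chosen over libraries that include the pBTSCs, nothing is read from its call between the lines.

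The identity of the HIST1H2BB reads has a limit. The table held 0 rows named GFP or EGFP, so the fluorescent part of the cassette was not measured under its own name. What the 7782 rows without a name measure was not examined. The table does not tell reads of the endogenous HIST1H2BB gene from reads of a cassette or of a near-identical H2B copy. How counting treated near-identical copies can be seen in HIST2H2AA3 and HIST2H2AA4, whose rows had the same value in 19 of the 20 libraries and differed in S4, at 88.0 and 0 normalized counts. Whether HIST1H2BB shares reads with other rows was not tested.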

How the data were processed

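Poly(A) RNA of the 20 libraries was sequenced from stranded mRNA libraries. What the authors deposited is a table with a gene name per row and a signal per library, their normalized counts; the processing notes of the submitters name STAR, Salmon and DESeq2, and the versions, genome build and annotation are not given in the sources used here. All 20 sample columns matched a label. The piglet line of the pBTSC libraries was taken from the study's supplement by storage number, and the sort of the liver libraries from the labels.

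HIST1H2BB and the gene lists were chosen with earlier results of these data known. The value of 1 read was taken from the most frequent low values in each library, and depth is the library total divided by it. Of the values up to 20 reads, 56.1% to 80.9% in a library were whole to a tolerance of 0.05 reads, too few for a count test. The lines were compared over the 3 H2B-GFP and 2 wild-type pBTSC libraries on log2(normalized count + 1) with limma 3.58.1 (R version 4.3.3), using a moderated variance with trend. Tested genes reached 10 normalized counts in 2 or more of the 20 libraries and were above 0 in a pBTSC library. Calls needed a Benjamini-Hochberg adjusted p below 0.05 together with a log2 difference beyond 1 in either direction. The p-values cover the spread between these piglets. They do not separate the line from the label number, since the line contrast falls wholly on the division at S15. The limma step was tried on simulated counts with the same relative spread for all genes, changing well-expressed genes only. There it called 99% of genes changed by 2 on the log2 scale, and 0% of its calls were unchanged genes. The simulation held no effect of label number or of single libraries, so this outcome does not carry over to these data. The closest libraries of 1 sort, S17 and S22, differed by 1.42 times the counting noise, and none was counted as a repeat of another. For the shallow S22, S15 and S13 the counting noise is large, so this ratio cannot tell a repeat well. Among pairs without them the closest, S18 and S23, differed by 3.41 times the noise. Named genes were HIST1H2BB, ACTB and ACTG1, listed histone and marker genes that were called, the 5 other canonical histones with the highest mean, the 10 genes with the highest (1 of which is not reported here) and 3 with the lowest Pearson's r to HIST1H2BB, and the 5 with the widest gap, to which examples of each list were added after their values were seen. Of the lists, KRT19 had no row. Alternatives were other pseudocounts (0.1 and 10), filters, scalings, weights and fits, and each pBTSC library left out in turn. Python 3.11.15, numpy 2.4.6, pandas 2.3.3, scipy 1.17.1 and matplotlib 3.10.9 were used. No sequence or coordinate is printed, since none was given in the sources used here.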

Additional observations from a re-analysis of the deposited data

Results flagged for a closer look

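In 27 comparisons of single libraries with the rest of their own group of 4 or 5, made for ACTB, ACTG1 and other histones and not for HIST1H2BB, 1 library stood apart by Dixon's criterion, which chance meets in about 1 of 20 groups. Among the 5 pBTSC libraries, S20 had the highest HIST1H1E, at 66.6 normalized counts, with a gap to the next library of 0.780 of the group's range.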

How the results depend on the processing

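Of 132 recomputed values, 104 were counted as kept, 14 lost a call, 1 gained one, 13 moved and 0 changed direction. For log2 differences of single genes other than HIST1H2BB, kept means the same direction and call, whatever the size. PCDHB7, for example, was counted as kept when it went from -4.48 to -2.93 with a pseudocount of 10. The count of genes called between the lines, 264, was 175 with a pseudocount of 0.1 and ranged from 81 to 776 with 1 pBTSC library left out (142 without S2, 131 without S7, 81 without S15 and 776 without S20). Without S15 or S20 a single wild-type library remained, which was assumed to vary like the H2B-GFP libraries. Canonical histones called ranged from 0 to 4 over the same fits, with 4 called (3 higher and 1 lower) without S20, when the shallow S15 stood for the wild-type line. The log2 difference of HIST1H2BB was 7.32 with a pseudocount of 10, and 7.999 to 8.13 with a library left out. Rescaling to equal totals moved the median log2 difference of all tested genes from 0.01 to 0.11 and that of the canonical histones from -0.04 to 0.06, and ACTB was at -0.11. The median of HIST1H2BB over S2 to S14, 74.1 per 1000 of ACTB, was 45.2 per 1000 of ACTG1 and 179.7 per 1000000 of the library total, which are other units. Of the 10 genes most like HIST1H2BB, 2 were shared with Spearman's rho, 3 without the 3 libraries under 2000000 reads and 2 over the 15 liver libraries. The genes with no overlap between S2 to S14 and S15 to S23 rose from 214 to 505 without those 3 libraries (310 and 195 by direction), an alternative chosen after seeing the data, as were a filter on the pBTSC libraries alone, which called 264, and the ratio to ACTB without S5, with a median of 74.7. The cause was not tested, other than that the count of genes with no overlap then had fewer libraries to separate. The call of STMN3 was also lost with no filter on low values (adjusted p = 0.0582 in limma) and in a fit to all 20 libraries (0.757), and that of PCDHB7 with a pseudocount of 0.1 (0.0643), library weights (0.0683) and all 20 libraries (0.711). No paired analysis was possible because the label numbers of the libraries give no replicate number shared between lines. Depth limits the levels in S15, S22 and S13.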

Other observations

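Beside PCDHB7, the widest gaps in favour of S15 to S23 were those of OAS2 and IFI6, genes induced by interferon, named after their values were seen. OAS2 was at 517 to 1167 normalized counts in S2 to S14 and at 3265 to 13390 in S15 to S23, and IFI6 at 245 to 876 and at 1563 to 13317. Neither was even over S15 to S23. OAS2 was at 12635 to 13390 in S15 to S19 and at 3265 to 4925 in S20 to S23, and IFI6 at 12508 to 13317 and at 1563 to 2503. Between the pBTSC lines neither was called in limma, with log2 differences of -2.97 (SE 0.56, adjusted p = 0.0622) and -3.22 (SE 0.79, adjusted p = 0.119).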
